A study of Mus musculus with 10 samples.

Results

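NRF2 (gene Nfe2l2), its inhibitor Keap1 and 8 classical antioxidant genes of the NRF2 pathway (Nqo1, Hmox1, Srxn1, Txnrd1, Gclc, Gclm, Slc7a11 and Gsr) were followed in the livers of mice given metformin with carbon tetrachloride (CCl4) or CCl4 alone. The 10 genes were taken by name, by matching the accession of each array probe to RefSeq mouse symbols and synonyms. All 10 were on the array, with 12 probes, among 21615 named genes. With metformin, Nfe2l2 and Keap1 transcripts were higher, Hmox1, Srxn1, Txnrd1 and Gclc were lower, Nqo1, Gclm and Gsr did not pass the main test, and Slc7a11 was near background. When arrays were scaled to spike-in transcripts, the rise of Keap1 did not hold, and Nqo1, Gclm and Gsr passed as lower. The call for Gsr also depended on the probe.

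Liver RNA of 6 males that received CCl4 and metformin was set against that of 4 males that received CCl4 without metformin, with 1 array per mouse. All 10 carried the miR-221 transgene (strain TG221) on a B6D2F2 background and were 4 to 6 weeks old at the start. CCl4, a toxin that injures hepatocytes and leads to fibrosis, was given as 20% v/v in olive oil by gavage 3 times a week for 14 weeks. Metformin, a drug for type 2 diabetes, was given by mouth at 300 mg per kg body weight every day, starting 3 weeks into the CCl4 course. Livers were taken at 24 weeks. Both groups carry the transgene and both received CCl4, so neither is an untreated or wild-type liver, and the labels do not give the promoter that drives the transgene. The labels name the tissue as liver and the cell type as hepatocellular carcinoma, without saying whether tumour or surrounding tissue was taken. The 8 hepatocyte markers examined, among them albumin, were well above background on all 10 arrays.

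NRF2 is a transcription factor that is made continuously and, in unstressed cells, is held by KEAP1 and passed to a ubiquitin ligase for degradation. Electrophiles and oxidants modify cysteines of KEAP1, NRF2 then accumulates, pairs with small MAF proteins and binds antioxidant response elements near genes of glutathione, thioredoxin, NADPH and quinone metabolism. NRF2 activity is thus set largely at the level of the protein, which the arrays do not measure. In the liver the pathway is known for its part in detoxifying reactive metabolites, such as those made from CCl4.

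The stretches just upstream of 4 of these genes are shown because they hold the letters of an antioxidant response element or, for Srxn1, several near matches. They come from RefSeq (build GRCm38.p6), which gave windows of 250 bases before the annotated start for 7 of the 10 genes, 9 windows in all; windows were not used here for Hmox1, Gclc and Gsr. Each is written 5' to 3' on the strand of the gene, and capitals mark TGANNNNGC on either strand.
Nfe2l2, chr2:75704664-75704913, minus strand: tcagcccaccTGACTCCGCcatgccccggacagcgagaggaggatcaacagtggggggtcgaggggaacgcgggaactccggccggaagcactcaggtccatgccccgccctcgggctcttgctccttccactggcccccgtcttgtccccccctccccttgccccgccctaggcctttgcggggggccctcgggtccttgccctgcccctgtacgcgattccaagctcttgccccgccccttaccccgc
Srxn1, chr2:152105274-152105523, plus strand: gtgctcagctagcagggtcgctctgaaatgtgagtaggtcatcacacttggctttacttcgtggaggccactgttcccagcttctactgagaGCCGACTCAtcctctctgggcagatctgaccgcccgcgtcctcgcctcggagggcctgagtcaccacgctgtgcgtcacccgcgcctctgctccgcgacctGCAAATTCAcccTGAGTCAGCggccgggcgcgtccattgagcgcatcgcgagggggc
Txnrd1, chr10:82858956-82859205, plus strand: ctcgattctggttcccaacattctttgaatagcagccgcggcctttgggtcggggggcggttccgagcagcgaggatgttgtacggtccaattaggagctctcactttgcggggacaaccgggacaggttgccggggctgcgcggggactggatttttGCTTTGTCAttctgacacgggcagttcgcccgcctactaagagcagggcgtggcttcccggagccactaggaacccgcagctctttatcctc
Gclm, chr3:122245307-122245556, plus strand: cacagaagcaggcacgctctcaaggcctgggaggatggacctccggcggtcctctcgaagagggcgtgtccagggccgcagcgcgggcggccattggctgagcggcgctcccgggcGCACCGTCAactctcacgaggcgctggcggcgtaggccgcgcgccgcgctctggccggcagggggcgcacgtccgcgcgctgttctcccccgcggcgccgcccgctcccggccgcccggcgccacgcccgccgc

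The stricter letters TGACNNNGC were found, searching both strands, in 3 of the 9 windows, against 10.2% of all 32851 windows of the same length. The match in the Nfe2l2 window begins at position -240 from the start and reads TGACTCCGC. The Gclm match, at -134, reads TGACGGTGC on the opposite strand. Of the 3 Txnrd1 windows, 1 holds TGACAAAGC at -92, also on the opposite strand. The looser TGANNNNGC, which includes the stricter form, was found in 7 of the 9 windows, against 35.2% of all windows. Srxn1 had 3 such matches, at -158, -57 and -45. The letters TGANTCA, the core bound by AP-1 factors, occurred in the Srxn1 window at -102 and at -45, the second of them overlapping the match TGAGTCAGC, and in 6.75% of all windows. These are letter matches in short windows and do not show that a factor binds there. Nfe2l2, which was higher with metformin, and Txnrd1, which was lower, both hold the stricter letters, and so does Gclm, which did not pass the test.

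Levels are log2 intensities of the brightest probe of a gene minus the array's 75th percentile, so that 0 is the signal that 75% of the spots lie below. Intensities of different probes cannot be compared as transcript amounts. Each array had 59305 non-control spots and a 75th percentile of 237 to 363 intensity units, and 51.2% to 54.9% of the probes were well above background. Of 14542 named genes tested with limma, 6889 passed at an adjusted p below 0.05, which is 47.4% of them, with 27.7% higher and 19.7% lower with metformin. The 6 metformin arrays were on 1 slide and the 4 CCl4 arrays on another, so slide and treatment cannot be told apart in any value that follows. Within a bulk tissue sample, fewer cells of a type and less RNA per cell cannot be told apart either.

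Of the 10 genes, 9 were bright enough to be tested, and 6 of the 9 passed, 2 higher and 4 lower, beside the 47.4% of all named genes. The same 6 were those whose groups did not overlap, which held for 35.9% of all named genes, 21.8% with the metformin mice higher and 14.1% with them lower. The median log2 fold change of the 9 was -0.36, against 0.073 over all named genes. Nothing particular to the pathway is read from a count of 9 genes on arrays that changed so widely.

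Nfe2l2 encodes NRF2 itself. Its log2 level in the 6 metformin mice had a lowest value of 2.81, a median of 3.16 and a highest of 3.89, against 1.66, 1.30, 1.54 and 1.56 in the 4 CCl4 mice. Every metformin mouse lay above every CCl4 mouse, and the gap between the nearest mice was 1.15. The mean was 3.27 ± 0.40 with metformin and 1.51 ± 0.15 with CCl4 (SD, n = 6 and 4), a log2 fold change of 1.76 ± 0.20 (SE; limma, adjusted p = 1.06e-04), or 3.38-fold. Its absolute change was larger than that of 97.7% of the named genes. Relative to the median change of all features, Nfe2l2 stood 1.66 higher.

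Keap1 encodes the adaptor that retains NRF2 and delivers it to the CUL3 ubiquitin ligase. Its level ran from 2.96 through a median of 3.24 to 3.39 in the metformin mice, against 2.70, 2.64, 2.56 and 2.90 in the CCl4 mice. The groups did not overlap, but CCl4 mouse 4 lay only 0.062 below the lowest metformin mouse. The means were 3.20 ± 0.17 with metformin and 2.70 ± 0.15 with CCl4 (SD, n = 6 and 4), a log2 fold change of 0.50 ± 0.11 (SE; limma, adjusted p = 0.0044), or 1.41-fold. The direction depends on the scaling: with arrays scaled to the spike-in transcripts the log2 fold change of Keap1 was -0.025 (limma, adjusted p = 0.925), while the median over all named genes was -0.45 under that scaling. With the row of the array on the slide in the model, the Keap1 value was 0.43 and did not pass (limma, adjusted p = 0.0524). Only metformin mice 1 and 2 shared a row with the CCl4 mice, so that value compares those 2 with the CCl4 mice.

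Nfe2l2 changed more than Keap1 on the same arrays. The within-array difference, Nfe2l2 minus Keap1, averaged 0.075 ± 0.34 with metformin and -1.18 ± 0.18 with CCl4 (SD, n = 6 and 4). That is a shift of 1.26, a 2.39-fold higher ratio, and its p of 0.00952 in a two-sided exact permutation test is the smallest that the 210 ways of dividing 6 and 4 mice allow (adjusted p = 0.0143 over 3 ratios tested). A ratio of 2 genes on 1 array does not move with any scaling of the whole array.

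**Figure D1:**
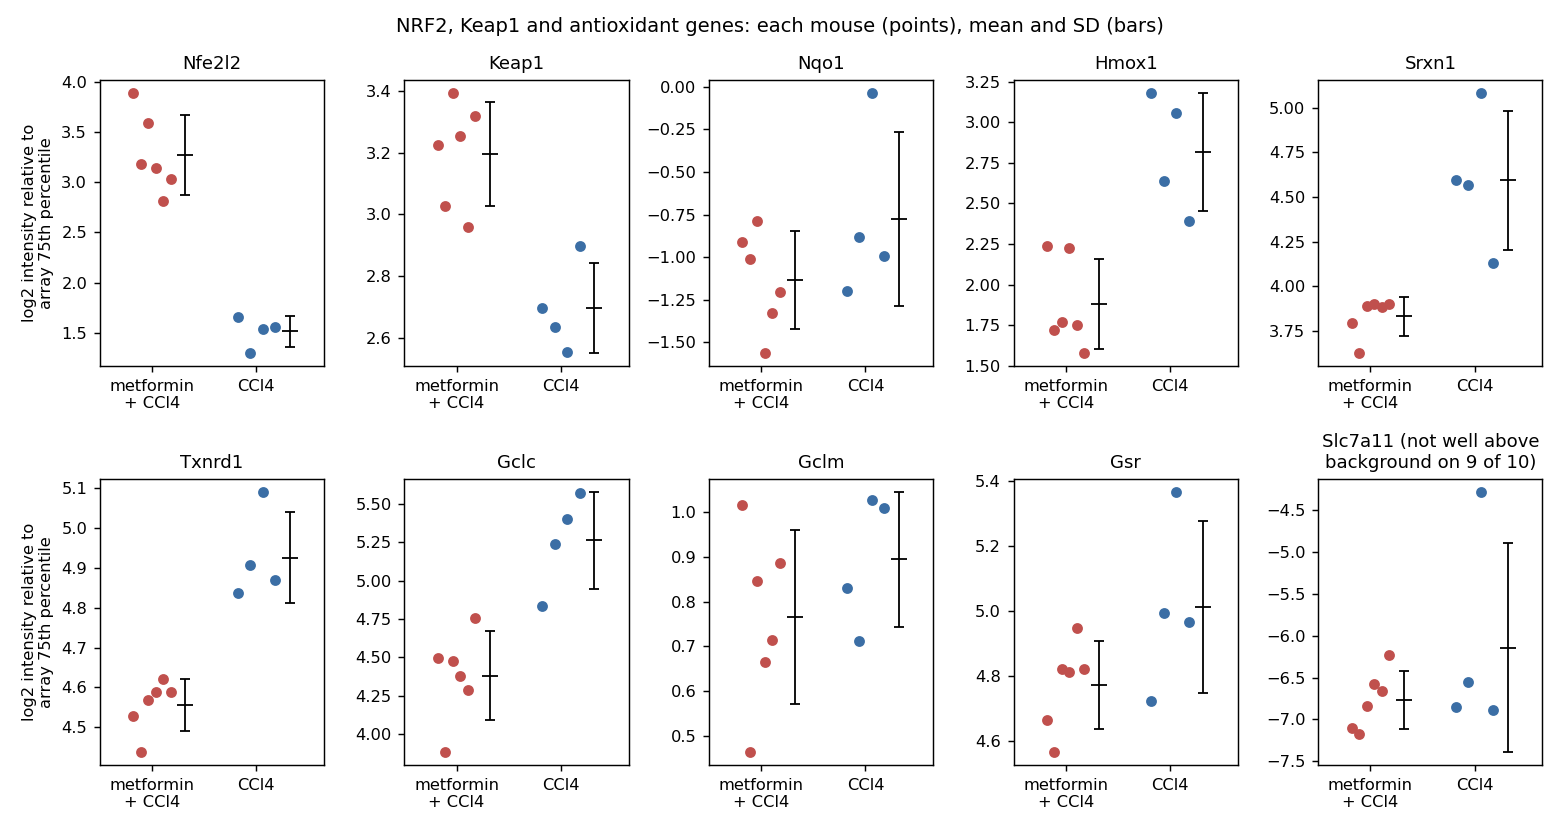
Log2 intensity relative to the array's 75th percentile for the 10 genes, 1 point per mouse, metformin plus CCl4 (red, 6 mice) left of CCl4 (blue, 4 mice); bars are the mean and SD, and each panel has its own scale. The groups are apart for Nfe2l2, Keap1, Hmox1, Srxn1, Txnrd1 and Gclc, they overlap for Nqo1, Gclm and Gsr, and Slc7a11 stands out only in CCl4 mouse 3, at -4.29; under spike-in scaling Keap1 had a log2 fold change of -0.025.

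Among the target genes, the catalytic subunit of the enzyme that makes the first intermediate of glutathione was lower with metformin while its modifier subunit did not pass the test. Gclc, the catalytic subunit of glutamate-cysteine ligase, ranged from 3.88 through a median of 4.43 to 4.76 in the metformin mice, against 4.83, 5.24, 5.40 and 5.57 in the CCl4 mice. All metformin mice lay below all CCl4 mice, with 0.077 between the nearest pair, metformin mouse 6 and CCl4 mouse 1. The means were 4.38 ± 0.29 with metformin and 5.26 ± 0.32 with CCl4 (SD, n = 6 and 4). The log2 fold change was -0.88 ± 0.18 (SE; limma, adjusted p = 0.0030), or 1.84-fold lower.

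Gclm, the modifier subunit that raises the activity of Gclc, ranged from 0.46 through 0.78 to 1.02 in the metformin mice, against 0.83, 0.71, 1.03 and 1.01 in the CCl4 mice. The groups overlapped, with metformin mouse 1 near the top of the CCl4 values and metformin mouse 2 below all others. The log2 fold change was -0.13 ± 0.12 (SE; limma, adjusted p = 0.403), with a 95% interval of -0.39 to 0.14, so a change as large as that of Gclc lies outside it. The difference between the subunits was tested directly. Gclc minus Gclm averaged 3.61 ± 0.16 with metformin and 4.37 ± 0.26 with CCl4 (SD, n = 6 and 4), a shift of -0.75 and a 1.69-fold lower ratio. Its exact permutation p was 0.00952 (two-sided, adjusted p = 0.0143), again the smallest the design allows. Under spike-in scaling Gclm also passed, at -0.65 (limma, adjusted p = 0.0229), without altering this ratio.

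Slc7a11, the cystine importer that feeds glutathione synthesis, was not well above background on any of the 6 metformin arrays and was so on 1 of the 4 CCl4 arrays. Its probe read -7.17 to -6.24 in the metformin mice, against -6.85, -6.56, -4.29 and -6.89 in the CCl4 mice. The single reading above background was that of CCl4 mouse 3. With only a bound in 9 of 10 livers, no fold change is given.

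Gsr, glutathione reductase, regenerates reduced glutathione with NADPH, and its 2 probes gave different calls. On the brighter probe the metformin mice ran from 4.57 through a median of 4.82 to 4.95, against 4.72, 4.995, 5.37 and 4.97 in the CCl4 mice. The groups overlapped on that probe, and the log2 fold change was -0.24 ± 0.13 (SE; limma, adjusted p = 0.148; 95% interval -0.52 to 0.042). On the dimmer probe the metformin mice ran from 3.14 through 3.36 to 3.45, against 3.66, 3.84, 4.14 and 3.81 in the CCl4 mice. There the groups were 0.215 apart, with a log2 fold change of -0.52 ± 0.11 (SE; limma, adjusted p = 0.0030 over all kept probes). The mean of both probes also passed, at -0.38 (limma, adjusted p = 0.0203). On the brighter probe Gsr also passed after quantile normalization, at -0.35 (limma, adjusted p = 0.0379), and under spike-in scaling, at -0.77 (limma, adjusted p = 0.0091). The log2 fold change was below 0 on both probes, and the call for Gsr depends on the probe and on the scaling.

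Srxn1 and Txnrd1, which keep peroxiredoxins and thioredoxin in working order, were both lower with metformin. Srxn1, sulfiredoxin, reverses the overoxidation of peroxiredoxins. It ranged from 3.63 through a median of 3.89 to 3.90 in the metformin mice, against 4.60, 4.57, 5.08 and 4.13 in the CCl4 mice. The metformin mice lay close together, and all of them were below the CCl4 mice, which spread over a wider range with mouse 3 at the top and mouse 4 at the bottom. Means were 3.83 ± 0.11 with metformin and 4.59 ± 0.39 with CCl4 (SD, n = 6 and 4), giving a log2 fold change of -0.76 ± 0.16 (SE; limma, adjusted p = 0.0029), or 1.70-fold lower.

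Txnrd1, cytosolic thioredoxin reductase, returns oxidised thioredoxin to its reduced form. Its values were 4.44 at the lowest, 4.58 at the median and 4.62 at the highest in the metformin mice, against 4.84, 4.91, 5.09 and 4.87 in the CCl4 mice. The groups were 0.214 apart and both were tight, at 4.56 ± 0.066 with metformin and 4.93 ± 0.11 with CCl4 (SD, n = 6 and 4). The log2 fold change was -0.37 ± 0.080 (SE; limma, adjusted p = 0.0040), or 1.29-fold lower. In size this change was ordinary, larger than that of 50.1% of the named genes. Txnrd1 minus Gsr, both read on the brightest probe, averaged -0.22 ± 0.074 with metformin and -0.087 ± 0.16 with CCl4 (SD, n = 6 and 4), a shift of -0.13 that did not pass (exact permutation p = 0.143). The 2 reductases were therefore not shown to differ in how far they changed.

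Hmox1, haem oxygenase, breaks haem down to biliverdin, iron and carbon monoxide. It had 2 probes, and both gave the same answer. The brighter probe ranged from 1.58 through a median of 1.76 to 2.24 in the metformin mice, against 3.18, 2.64, 3.06 and 2.39 in the CCl4 mice. The groups did not overlap, with metformin mouse 1 and CCl4 mouse 4 nearest each other at a gap of 0.158. The means were 1.88 ± 0.28 with metformin and 2.82 ± 0.36 with CCl4 (SD, n = 6 and 4), and the log2 fold change was -0.94 ± 0.19 (SE; limma, adjusted p = 0.0026), or 1.92-fold lower. On the dimmer probe the metformin mice ran from -1.22 to -0.62, against 0.67, 0.085, -0.0041 and -0.38 in the CCl4 mice. That probe changed by -1.05 ± 0.19 (SE; limma, adjusted p = 0.0015 over all kept probes). When only arrays on the first slide row were kept, 2 metformin and all 4 CCl4 mice, Hmox1 read -0.84 and did not pass (limma, adjusted p = 0.0613).

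Nqo1, a quinone reductase and a gene often read as a marker of NRF2 activity, did not pass. It ranged from -1.56 through a median of -1.11 to -0.79 in the metformin mice, against -1.20, -0.88, -0.035 and -0.99 in the CCl4 mice. The groups overlapped, and CCl4 mouse 3 lay far above the other 3 CCl4 mice. The log2 fold change was -0.36 ± 0.23 (SE; limma, adjusted p = 0.224; 95% interval -0.86 to 0.15), and -0.11 without CCl4 mouse 3. Under spike-in scaling Nqo1 passed as lower, at -0.88 (limma, adjusted p = 0.0309).

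**Figure D2:**
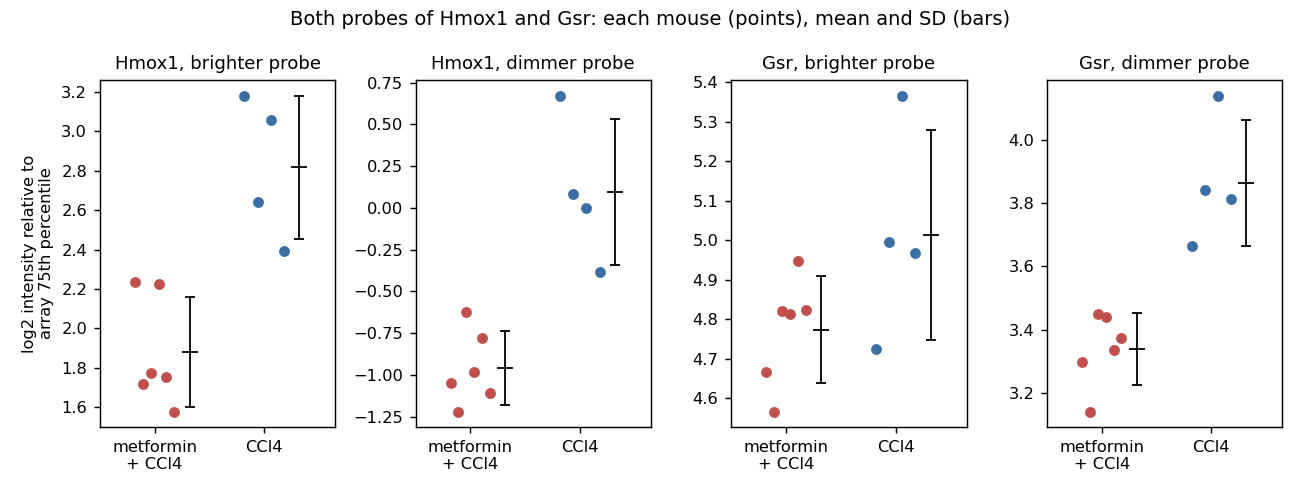
Log2 intensity relative to the array's 75th percentile for both probes of Hmox1 and of Gsr, 1 point per mouse, metformin plus CCl4 (red, 6 mice) left of CCl4 (blue, 4 mice), with the mean and SD as bars. Both Hmox1 probes separate the groups; of the Gsr probes only the dimmer one does, with a gap of 0.215.

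Spike-in control transcripts, which Agilent's design means to be added in equal amount to every RNA, were read by 7 probes and gave a second scale. Their mean signal stood 4.83 to 5.25 above the array's 75th percentile (log2) on the metformin arrays, against 4.25 to 4.81 on the CCl4 arrays. The spike-in signal itself was 13.02 to 13.33 (log2) on the metformin arrays, against 12.42 to 13.08 on the CCl4 arrays. The 75th percentile was 237 to 363 intensity units on the metformin arrays, against 238 to 338 on the CCl4 arrays. The cause of this difference between the slides was not tested. With arrays scaled to the spike-in transcripts, the share of calls that were higher with metformin was 8.56%, against 58.5% on the 75th percentile scale. On the spike-in scale Nfe2l2 remained higher, at 1.23 (limma, adjusted p = 0.0025), the 4 lower genes remained lower, Nqo1, Gclm and Gsr also passed as lower, and Keap1 did not pass. The order of the 9 genes is the same under both scales, since a scaling moves all of them by an equal amount.

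**Figure D3:**
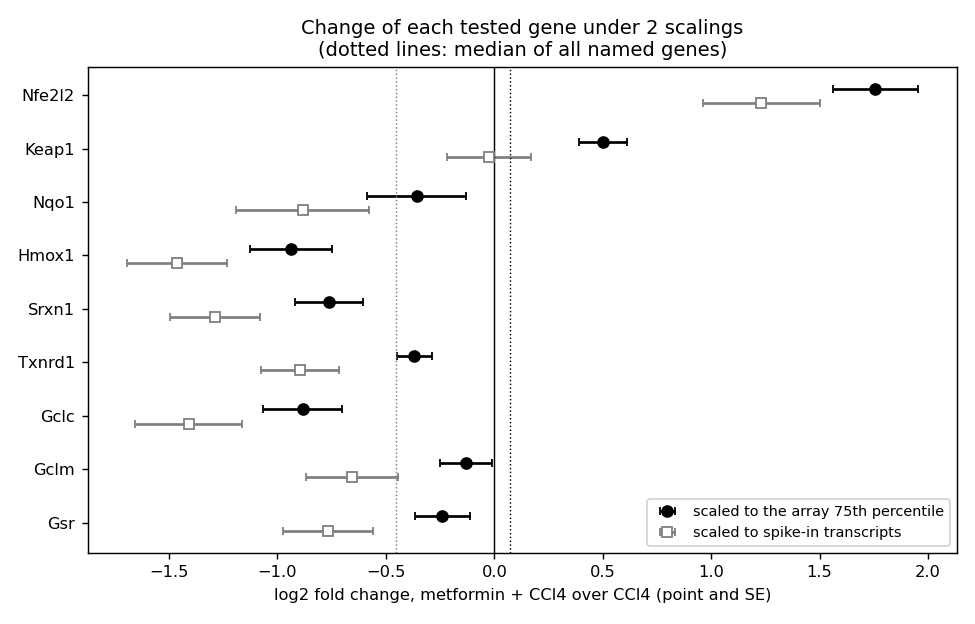
Log2 fold change, metformin plus CCl4 over CCl4, of the 9 tested genes with SE bars, scaled to the array's 75th percentile (black circles) or to spike-in transcripts (open squares); dotted lines mark the median of all named genes, 0.073 and -0.45. Nfe2l2 stands above the median under both scales, Hmox1, Srxn1 and Gclc stand below it, and Keap1 reads 0.50 on the first scale and -0.025 on the second.

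Individual mice did not move as a block. CCl4 mouse 3 was the highest of its group for 5 of the 9 tested genes, namely Nqo1, Srxn1, Txnrd1, Gclm and Gsr, and it was also the mouse with the Slc7a11 signal. CCl4 mouse 1 was the highest for Nfe2l2 and Hmox1, and CCl4 mouse 4 for Keap1 and Gclc. Among the metformin mice, mouse 2 was the lowest for 5 of the 9 genes, and mouse 1 was the highest for Nfe2l2, Hmox1 and Gclm. Scaled to spike-in transcripts, metformin mouse 1 was the highest of its group for all 9 tested genes. CCl4 mouse 3 was then the highest of its group for all of them but Keap1 and Gclc. With any single mouse left out, the same count of 6 calls, 2 higher and 4 lower, was obtained.

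Within the 6 metformin mice, the level of Nfe2l2 was set against each of the other 8 tested genes. Pearson's r ran from -0.49 for Gsr to 0.70 for Nqo1. None of the 8 relations passed, with a smallest adjusted permutation p of 0.487 for Pearson's r and 0.363 for Spearman's rho, and none was below 0.05 unadjusted. For Nqo1, r = 0.70 (exact permutation p = 0.122) and rho = 0.77 (exact permutation p = 0.103), and r was 0.16 without the 2 mice farthest from the median of Nfe2l2. The count depends on the scaling: with arrays scaled to spike-in transcripts, 6 of the 8 relations passed in the same mice.

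Other genes of the pathway were read from 6 lists with 52 genes, of which 51 were tested (Ggt1 was too dim). Of the 51, 10 were higher, 14 were lower and 27 did not pass. Among all named genes 47.4% were called, with 27.7% higher and 19.7% lower, so the lists together changed about as often as the array. Their median log2 fold change was -0.058. The split depends on the scale, since under spike-in scaling 1 of the 51 was higher and 28 were lower. Among all 14542 named genes, 590 were higher and 6301 lower under that scaling.

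Of 13 NRF2 regulators and partners, 5 were higher and 4 lower on the 75th percentile scale, each read from its brightest probe. Of the 5 higher ones, Bach1 alone passed as higher under spike-in scaling, while Mafg read 0.0090, Rbx1 -0.032, Nfe2l1 -0.15 and Gsk3b -0.24 there. Gsk3b read 0.29 on its brightest probe, but its other probes read -0.92 (limma, adjusted p = 6.70e-04 over all kept probes) and 0.28. Btrc did not pass on its brightest probe, at 0.17. Its other probe was lower, at -0.31 (limma, adjusted p = 0.0397 over all kept probes). Mafg, Rbx1, Nfe2l1, Gsk3b and Btrc are named here after their values were seen. Bach1, a repressor that competes with NRF2 for antioxidant response elements and holds down Hmox1, averaged 2.77 with metformin and 1.35 with CCl4, a log2 fold change of 1.42 ± 0.26 (SE; limma, adjusted p = 0.0016). Its relative Bach2 was lower, at -1.20 ± 0.23 (SE; limma, adjusted p = 0.0019), and a second, dimmer probe read -1.41. Small MAF proteins are the DNA-binding partners of both NRF2 and BACH1. Mafk was lower, at -1.10 ± 0.11 (SE; limma, adjusted p = 7.64e-05), and so was Maff, at -1.81 ± 0.47 (SE; limma, adjusted p = 0.0104), though the Maff values of the groups overlapped. The third small MAF gene, Mafg, was higher on its brightest probe, at 0.53 ± 0.13 (SE; limma, adjusted p = 0.0063), with 0.07 and 0.05 on its other probes, so the small MAF genes did not move one way. Sqstm1 encodes p62, which binds KEAP1 and draws it into autophagy and is itself a gene that NRF2 can switch on. It averaged 3.14 with metformin and 3.99 with CCl4, a log2 fold change of -0.85 ± 0.12 (SE; limma, adjusted p = 2.94e-04). Bach1, Bach2, Mafk, Maff and Sqstm1 kept their direction under spike-in scaling, Bach1 at 0.89 (limma, adjusted p = 0.0372).

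The glutathione list had 13 tested genes, of which 6 were lower, none was higher and 7 did not pass, with a median log2 fold change of -0.47. Among all named genes 19.7% were lower. Gstm1, named here after its values were seen, did not pass on its brightest probe, at -0.47. Its other probe was lower, at -1.16 (limma, adjusted p = 0.0035 over all kept probes). Gpx2, a glutathione peroxidase best known from the gut, read -1.57 ± 0.39 (SE; limma, adjusted p = 0.0083), -1.10 without CCl4 mouse 3 and -0.85 with normexp background correction, and passed in each case. Of the glutathione S-transferases, which couple glutathione to electrophiles, Gstm4 read -1.25 ± 0.23, Gstm3 -1.19 ± 0.25, Gstm2 -0.78 ± 0.13 and Gstp1 -0.54 ± 0.11 (SE). All 4 passed in limma, with adjusted p between 8.70e-04 for Gstm2 and 0.0035 for Gstm3. The other probes read -1.06 for Gstm4, -1.19 and -0.90 for Gstm2, -0.58 for Gstp1 and -0.66 for Gstm3, the last of which did not pass (limma, adjusted p = 0.0747). Transferases of the mu class are close in sequence, so a probe may read more than 1 of them and their values are not independent.

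All 3 genes of the thioredoxin list were higher on the 75th percentile scale, and all 3 turned below 0 under spike-in scaling, at -0.058 for Txn1, -0.29 for Prdx1 and -0.049 for Prdx6. On the 75th percentile scale Txn1, thioredoxin, read 0.47 ± 0.092 (SE; limma, adjusted p = 0.0023). Prdx1, a peroxiredoxin, read 0.23 ± 0.080 (SE; limma, adjusted p = 0.0359), and it lost its call when any of 7 mice was left out, with a highest adjusted p of 0.0843 without CCl4 mouse 1. Prdx6 read 0.48 ± 0.093 on its brightest probe (SE; limma, adjusted p = 0.0021), but its other 3 probes read -0.43, -0.18 and -0.30, so its direction rests on the choice of probe. Thioredoxin is the substrate of Txnrd1, and Prdx1 is a substrate of Srxn1; both of these enzymes were lower.

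Of the 6 enzymes of NADPH supply, G6pdx and Pgd, the oxidative steps of the pentose phosphate pathway, were lower, at -0.63 ± 0.18 (SE; limma, adjusted p = 0.0146) and -0.45 ± 0.14 (SE; limma, adjusted p = 0.0249). The call for Pgd was lost without CCl4 mouse 1 (limma, adjusted p = 0.0518) or mouse 4 of that group (0.0644). Me1, malic enzyme, was higher on its brightest probe at 0.53 ± 0.15 (SE; limma, adjusted p = 0.0141), with -0.20 and 0.18 on its other probes and -1.57e-04 under spike-in scaling. The non-oxidative enzymes Taldo1 and Tkt read 0.076 and 0.053 and the isocitrate dehydrogenase Idh1 read 0.26, and none of these passed.

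None of the 5 other genes listed for haem and iron handling passed. The biliverdin reductases Blvra and Blvrb read 0.071 and 0.27, the ferritin chains Fth1 and Ftl1 read -0.058 and -0.023, and Fech, which inserts iron into protoporphyrin to form haem, read 0.090. A second probe of Ftl1 was lower, at -0.77 ± 0.12 (SE; limma, adjusted p = 5.83e-04 over all kept probes), and the 2 probes of Ftl1 therefore differ. Blvrb passed without CCl4 mouse 3, at 0.40 (limma, adjusted p = 0.0314).

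Of 11 genes of quinone, carbonyl and epoxide detoxification, 1 was higher, 2 were lower and 8 did not pass. Ephx1, named here after its values were seen, did not pass on its brightest probe, at -0.15. Its other probe was lower, at -0.71 (limma, adjusted p = 0.0163 over all kept probes). Cbr3, a carbonyl reductase, read -1.25 ± 0.40 (SE; limma, adjusted p = 0.0258), and -0.74 without CCl4 mouse 3. Akr7a5, an aldo-keto reductase, read -0.35 ± 0.097 (SE; limma, adjusted p = 0.0136). Nqo2, a quinone reductase related to Nqo1, read 0.38 ± 0.091 (SE; limma, adjusted p = 0.0068), and -0.15 under spike-in scaling. With the slide row in the model, Maff at -1.69, G6pdx at -0.57, Cbr3 at -1.37, Nqo2 at 0.29 and Akr7a5 at -0.34 did not pass, with adjusted p of 0.0755 for Akr7a5 to 0.103 for G6pdx in limma. These row-adjusted values too compare metformin mice 1 and 2 with the CCl4 mice.

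**Figure D4:**
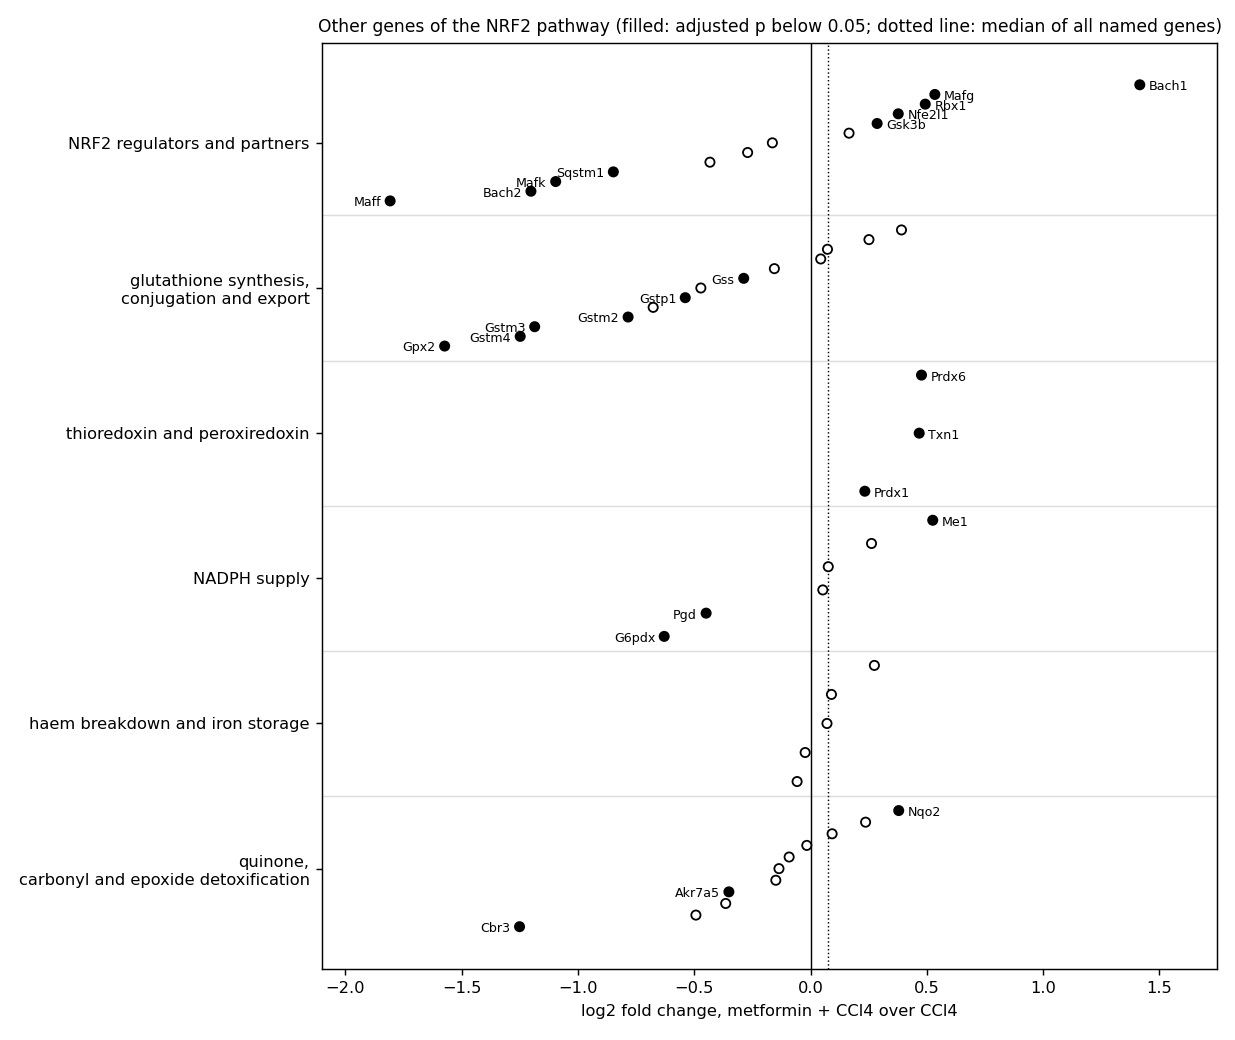
Log2 fold change, metformin plus CCl4 over CCl4, of the 51 other NRF2 pathway genes tested, by list and on the 75th percentile scale; filled points have a limma adjusted p below 0.05, and the dotted line is the median of all named genes, 0.073. The 6 filled glutathione genes all lie left of 0; the thioredoxin genes lie right of 0 here but turned below 0 under spike-in scaling, as did Me1, Nqo2, Rbx1, Nfe2l1 and Gsk3b.

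The genes whose profile over the 10 arrays lay nearest to each changed gene, after centring each gene on its mean, were picked by the root mean square difference. Nearest to Nfe2l2 were LTO1 at 0.200, Fam72a at 0.260 and Dnajb1, an HSP40 co-chaperone, at 0.261, with log2 fold changes of 1.67, 1.32 and 1.60. Nearest to Keap1 were Kif3a, Vti1b and Chd3, at 0.0868 to 0.0914. Nearest to Hmox1 were Ucp3, Tnfrsf12a and Nob1, at 0.130 to 0.165. Srxn1 had Spindoc, Nt5c2 and Mfsd10 at 0.108 to 0.138, Txnrd1 had Manbal, Nmt1 and Copb1 at 0.0574 to 0.0622, and Gclc had E2f2, Gmppa and Lgalsl at 0.172 to 0.178. None of the 10 genes was among the 3 nearest to another of them. All 18 neighbours passed the limma test in the direction of the gene they resemble, as the way of choosing them makes likely.

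Markers of the cell types in liver were read in the same fit, beside the 19.7% of all named genes that were lower and the 27.7% that were higher. Summed levels are in multiples of the array's 75th percentile signal. The brightest probes weigh most in a sum, such as those of Alb among hepatocyte, S100a9 among neutrophil and Hba-a1 among erythroid markers. A sum is therefore neither an amount of transcript nor a number of cells. Neutrophil markers were lower for 6 of 7 genes, with a summed level of 7.90 to 43.1 in metformin mice, against 32.3 to 67.7 in CCl4 mice. Macrophage markers were lower for 3 of 9 tested genes (57.2 to 105 with metformin, 86.3 to 107.1 with CCl4), and Cd163 was too dim to test. Stellate cell and myofibroblast markers were lower for 5 of 8 (9.57 to 16.5 with metformin, 15.5 to 23.8 with CCl4). Bile duct and progenitor markers were lower for 4 of 7 and higher for 1 (2.21 to 10.6 with metformin, 6.59 to 13.2 with CCl4), and endothelial markers were lower for 3 of 7 (51.0 to 85.5 with metformin, 72.7 to 88.2 with CCl4). Erythroid markers were lower for all 3 tested of 5 listed (122 to 207 with metformin, 258 to 412 with CCl4). Hepatocyte markers were lower for 3 of 8 (4742 to 6014 with metformin, 5722 to 7318 with CCl4). None of 5 tested T and NK cell markers and none of 4 tested B and plasma cell markers passed. The part of these cells in the values of Hmox1, Srxn1, Gclc and the other genes was not tested.

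The authors' deposited table of quantile-normalized log2 values, limited to probes with an FDR below 0.01 and a fold change above 1.5, holds 4595 probes and 5 of the 10 genes. In the authors' deposited table the difference of group means, metformin minus CCl4, was 1.68 for Nfe2l2, -1.01 and -1.08 for the Hmox1 probes, -0.88 for Srxn1, -1.005 for Gclc and -0.63 for the dimmer Gsr probe. Keap1, Nqo1, Txnrd1, Gclm and Slc7a11 have no probe in it.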

How the data were processed

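Gene expression was measured on Agilent 1-colour mouse arrays in 10 livers, 6 metformin plus CCl4 and 4 CCl4, grouped by the sample titles. Per the labels' protocols, 100 ng of total RNA (integrity number over 8) was amplified and labelled with Cy3. The scanner files deposited by the authors hold spot intensity on a linear scale, background-subtracted and detrended by Agilent Feature Extraction 10.7.3.1, per the file headers, and not normalized between arrays. The authors also deposited quantile-normalized log2 values of 4595 probes, filtered on FDR and fold change per that file's first line; the test behind the filter is not given in the sources used here. Set against the scanner intensities on the log2 scale, each column matched its own array (Pearson r across probes 0.9997 or more), with column medians of 7.78 to 7.88 for metformin and 7.76 to 7.84 for CCl4 mice; any further centring is unknown.

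Here log2 processed intensities were scaled by subtracting, on each array, the 75th percentile of its non-control spots. Irregular spots, 135 to 179 per array, were left out, no spot was saturated, and spots of a probe were averaged. A probe was kept if 75% or more of 1 group's arrays showed it well above background, which left 29586 of 55681. Accessions were matched, without versions, to RefSeq symbols of assembly GRCm38.p6 (28679 probes named, 27002 not); the arrays were gridded on mm9 per the file headers, so no gene coordinates are taken from that table. A gene was read from its brightest kept probe, and 22190 features, 14542 of them named genes, were fitted in limma 3.58.1 (R 4.3.3; lmFit and eBayes, two-sided, Benjamini-Hochberg over all features, threshold 0.05). Adjusted p-values given for single genes are limma's; differences of 2 genes within an array and correlations were tested by exact permutation (scipy 1.17.1). The fit was tested on simulated data with known changes. The number of arrays limits the precision.

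Named genes were the 10 genes, up to 5 called genes of largest change in each of 6 pathway lists, lists of 6 or fewer genes in full, and the 3 nearest genes to each called one. The genes and lists were chosen with earlier results of these data known. Alternatives covered background correction (normexp, offset 50, run on median spot intensity because the files have no mean column), scaling, the filter on dim probes, the choice of probe, slide row, a replicate block, and each mouse left out.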

Additional observations from a re-analysis of the deposited data

Results flagged for a closer look

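Slc7a11 in CCl4 mouse 3 lay far from the other mice of its group, at -4.29 on the log2 scale, with the next CCl4 mouse at -6.56. The gap is 0.872 of the whole range of the 4 CCl4 mice, above Dixon's 95% critical value for 4 values. The other 3 readings were not well above background, so their exact values, and with them the gap and the range, are not measured levels. It was the 1 such value among 30 combinations of probe or within-array difference and group, and chance gives about 1 in 20. The same mouse was the highest CCl4 mouse for Nqo1, Srxn1, Txnrd1, Gclm and Gsr.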

How the results depend on the processing

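Nfe2l2, Srxn1, Txnrd1 and Gclc kept their direction under every alternative run for them (21, 21, 20 and 21 of them). Where a test was made, they also kept their call. Their log2 fold changes were 1.23 to 2.02, -1.29 to -0.60, -0.90 to -0.31 and -1.41 to -0.78. These alternatives are not all separate checks. Each of these genes has a single probe, so the choice of probe and the filters on dim probes left its log2 fold change as it was. Both slide row settings gave the same log2 fold change. For Nfe2l2, Srxn1 and Gclc, the authors' table holds only probes already selected by FDR and fold change in these data. Of the 9 tested genes, 1 was called higher under spike-in scaling, with slide row as a covariate and on slide row 1 only. Under spike-in scaling 7 of the 9 were called lower, beside 6301 of all 14542 named genes called lower and 590 called higher. On slide row 1 only, 4216 of 14542 named genes and 14 of 51 pathway genes were called. Without the filter on dim probes, 28.5% of 21615 named genes were called. Scaling moved the share of calls that were higher: 58.5% on the 75th percentile, 50.5% after quantile normalization, 50.4% on the array median and 8.56% on spike-ins.

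Under spike-in scaling these log2 fold changes reversed: Keap1 -0.025, Txn1 -0.058, Prdx1 -0.29, Prdx6 -0.049, Taldo1 -0.45, Tkt -0.47, Me1 -1.57e-04, Idh1 -0.26, Blvra -0.45, Blvrb -0.25, Fech -0.44, Nqo2 -0.15, Vti1b -0.11 and Chd3 -0.059. With the mean of a gene's probes, Prdx6 (-0.11), Blvra (-0.030) and the difference of Txnrd1 and Gsr (0.012) reversed. Quantile normalization reversed Taldo1 (-0.082), Tkt (-0.082) and Fech (-0.054), the array median Tkt (-0.013), and normexp Fth1 (0.059). Both slide row settings reversed Taldo1 (-0.024) and Tkt (-0.15). Fth1 reversed without CCl4 mouse 3 (4.58e-04), and Ftl1 without metformin mouse 1 (0.021), metformin mouse 2 (0.032) or CCl4 mouse 2 (0.055), with a range of -0.097 to 0.055 over mice left out. Of these reversed values, only those of Taldo1 and Tkt under spike-in scaling passed the test. Spike-in and array-median scaling move all genes by 1 amount; for the other reversals the cause was not tested.

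Txnrd1 minus Gsr passed with normexp (-0.33, exact permutation, adjusted p = 0.00952), and ranged from -0.19 to -0.063 over mice left out, passing without CCl4 mouse 3 (exact permutation, adjusted p = 0.0238). Over mice left out, Gclc minus Gclm ranged from -0.88 to -0.69 and Nfe2l2 minus Keap1 from 1.14 to 1.33, the calls among all named genes from 5872 to 6646 and those among pathway genes from 21 to 24. On slide row 1 only, Gclc minus Gclm was -0.92 and Nfe2l2 minus Keap1 was 1.59 (exact permutation, adjusted p = 0.2 each), in tests that cannot pass at that size. Under spike-in scaling, 6 of the 8 correlations with Nfe2l2 within metformin mice passed, against 0 on the 75th percentile scale. Between these scales both genes of a pair shift by the same amount on each array. The part of this shared shift in the count was not tested.

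Mouse numbers are shared by the groups. Same-numbered mice did not deviate together (r of -0.14 to 0.086, with 1 of 4 nearest to its own number), so the numbers do not pair them. With a replicate block on mice 1 to 4, 6 of the 9 tested genes were called, beside 4679 of 14542 named genes and 16 of 51 pathway genes. The log2 fold change of Tkt was then -0.016. Gclc minus Gclm was -0.81 and Nfe2l2 minus Keap1 was 1.40 (exact permutation, adjusted p = 0.1875 each, in tests that cannot pass at that size).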
